A study of Schizosaccharomyces pombe with 21 samples.

Results

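The 200 most abundant long noncoding RNAs (lncRNAs) of the fission yeast Schizosaccharomyces pombe were followed through 7 groups of cultures in 2 RNA-seq experiments. Candidates were the 1521 loci whose identifiers begin with SPNCRNA, of 1527 such loci among the 6988 in the count tables, after 6 loci were left out by the rule. Members were the 200 candidates with the highest mean level over the 9 STF libraries, in CPM, counts divided by the library total and scaled to a common size. The choice therefore used the level in the STF mutants and in their wild-type, and every STF value below describes the members without testing the choice. The last members taken were SPNCRNA.1434 at 9.648 CPM and SPNCRNA.796 at 9.615 CPM, and the first loci left out were SPNCRNA.1601 at 9.604 CPM and SPNCRNA.1630 at 9.545 CPM. All 200 members passed the filter on low counts in both experiments. At or above the level of the last member were 193 members in STF6, 178 members in STF9 and 180 members in asp1-WT by the mean of that group, so some entered only through a group in which they were high.

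The STF experiment compared STF6 (asp1-W386*, strain BS848) and STF9 (asp1-W493*, BS858) with asp1-WT (BS216 for culture 1, AS478 for cultures 2 and 3). Each of these carries hygMX at the asp1 locus. Asp1 makes the inositol pyrophosphate IP8 with its kinase domain and removes it with its pyrophosphatase domain, which the nonsense codons of STF6 and STF9 truncate. The kcs1 experiment compared kcs1-R332T (BS1038), kcs1-L338R (BS1040) and kcs1-E834K (BS1042) with kcs1-WT (BS1037), each with kanMX at the kcs1 locus. Kcs1 is the other inositol pyrophosphate kinase, and these missense alleles were recovered as suppressors of STF growth defects. STF cultures grew in ePMGT medium and kcs1 cultures in YES medium, all of them h+ haploids in log phase at 30 °C, with 3 cultures per group and 1 strain per mutant allele. Medium and experiment cannot be told apart, so no test was made across the 2 experiments.

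Fission yeast lncRNAs are made by RNA polymerase II, and many are capped, polyadenylated and then destroyed by the nuclear exosome. Some act only by being transcribed: nc-tgp1, whose transcription runs across the tgp1 promoter, keeps the downstream transporter gene off in phosphate-replete cells, and cleavage and termination factors that stop the lncRNA early release it. Inositol pyrophosphates are known to favour such early termination, which is the reason for following lncRNAs in strains that make or remove them abnormally.

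Library totals were 20547260 to 35919903 counts in the STF experiment and 19515604 to 27776638 in the kcs1 experiment. Members took 0.945 to 1.10% of the counts in STF libraries and 0.542 to 0.630% in kcs1 libraries, and without SPNCRNA.53 (prl53) these shares were 0.449 to 0.643% and 0.301 to 0.361%. The asp1 RNA was higher in STF6 (76.2 to 101 CPM, log2 fold change 0.41, adjusted p = 0.0097) and was not called in STF9 (63.6 to 72.7 CPM, adjusted p = 0.80), against 64.0 to 71.0 CPM in asp1-WT. The kcs1 RNA was called in none of the kcs1 alleles, and these alleles, like the STF ones, change bases that a gene count cannot show. The 2 P cell genes, map2 for the pheromone P-factor and map3 for the receptor of the other mating type's pheromone, summed to 115 to 150 CPM in STF6, 158 to 172 CPM in STF9 and 47.2 to 49.8 CPM in asp1-WT, against 19.2 to 26.7 CPM over all kcs1 libraries. The 5 M cell genes summed to 58.6 to 72.5 CPM in STF6, 66.3 to 70.3 CPM in STF9 and 86.4 to 94.5 CPM in asp1-WT, and to 53.6 to 62.8 CPM over all kcs1 libraries. The lower sum in the STF mutants was that of mam1 (49.9 CPM in STF6, 52.8 CPM in STF9 and 77.3 CPM in asp1-WT on average), while the means of mfm1, mfm2, mfm3 and mam2 were higher in both mutants than in asp1-WT. The 4 meiotic genes counted summed to at most 8.60 CPM in any library. The part of these shifts in the lncRNA values was not tested.

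Most members were weakly expressed, and one stood far above the rest. The median member averaged 17.1 CPM in STF libraries and 11.1 CPM in kcs1 libraries, 21 members exceeded 50 CPM in STF libraries and 4 exceeded 100 CPM. Per kilobase of annotated exon, prl53 averaged 2792 RPKM in STF libraries and 1412 RPKM in kcs1 libraries. It was named as a polyadenylated RNA without a long reading frame, and its level was 5946, 5791 and 4722 CPM in STF6, 5888, 5522 and 5341 CPM in STF9, and 5128, 4348 and 4064 CPM in asp1-WT. STF6 overlapped asp1-WT while all 3 STF9 libraries lay above it, and prl53 was not called in either STF mutant. In the kcs1 experiment prl53 was called lower in kcs1-R332T, a call lost under 9 of 18 alternatives. It was also called lower in kcs1-E834K, a call lost under 0 of 18. Next by RPKM in STF libraries came SPNCRNA.445 (snoR61) with 90.1, SPNCRNA.1626 with 75.6, SPNCRNA.1351 with 56.8, SPNCRNA.1644 with 51.3 and SPNCRNA.815 with 49.8. The annotation types snoR61 as a small nucleolar RNA, a guide for rRNA modification, so that this locus goes against the label lncRNA. All members but SPNCRNA.01 were matched in the RefSeq annotation of assembly ASM294v3, where 198 are typed as lncRNA and 37 carry the remark that they may be an alternative end of a coding transcript. Of the 200, 160 were also among the 200 highest candidates by kcs1 CPM and 148 among the 200 highest by STF RPKM.

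The same lncRNAs were mostly more abundant in the wild-type grown in ePMGT than in the wild-type grown in YES. By mean CPM 185 of the 200 were higher in asp1-WT than in kcs1-WT, with a median ratio of 1.65; for 170 all 3 asp1-WT libraries lay above all 3 kcs1-WT libraries, and for 7 all lay below. Members were chosen on STF levels, which favours this direction. The same counts over all loci are not given, so nothing is read from these about lncRNAs as a class. SPNCRNA.935 differed most, with 188 ± 23 CPM in asp1-WT and 3.37 ± 0.13 CPM in kcs1-WT (SD, n = 3 each), a ratio of 55.9. SPNCRNA.577 averaged 29.5 CPM in asp1-WT and 1.10 CPM in kcs1-WT. Those 2 were followed by SPNCRNA.1115 (ratio 11.9), SPNCRNA.130 (omt3, ratio 8.69) and SPNCRNA.605 (ratio 8.27). SPNCRNA.934, which lies opposite SPNCRNA.935, had the lowest ratio of the 200, with 7.83 ± 3.1 CPM in asp1-WT and 23.7 ± 1.2 CPM in kcs1-WT. SPNCRNA.1557 was next, with 3.69 ± 0.26 CPM in asp1-WT and 10.4 ± 0.75 CPM in kcs1-WT.

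**Figure D1:**
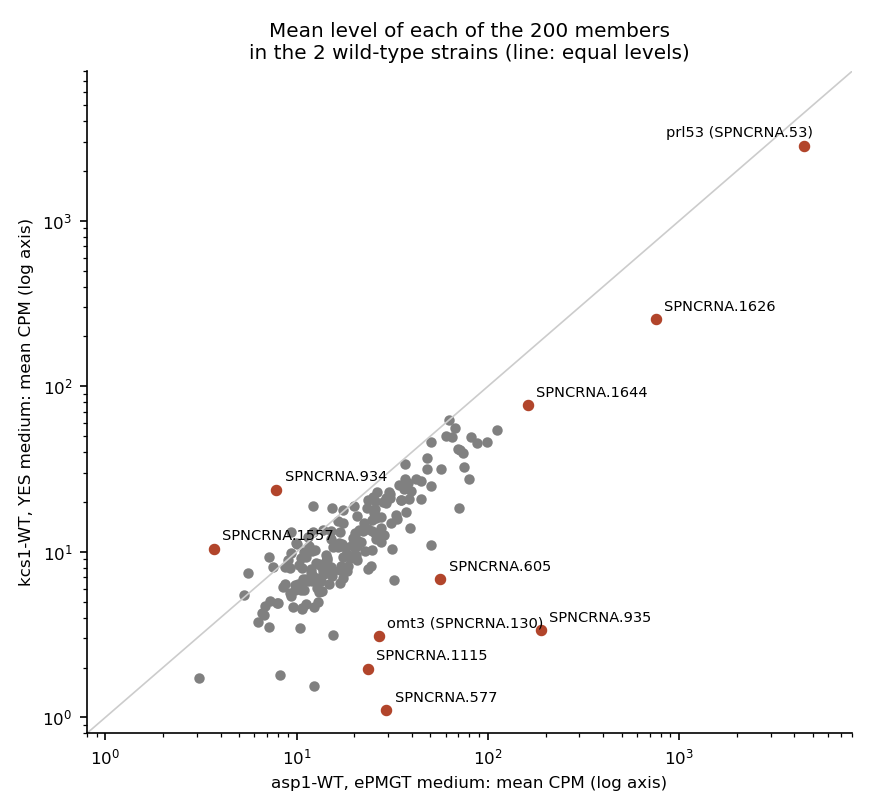
Mean CPM of each of the 200 lncRNAs in asp1-WT (horizontal, ePMGT medium, 3 libraries) and kcs1-WT (vertical, YES medium, 3 libraries), both on log axes, with a line of equal levels and 10 labelled members in red. Points below the line, 185 of the 200, are higher in asp1-WT, and SPNCRNA.935 and SPNCRNA.577 lie farthest below it.

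Members were long and mostly antisense to genes. Their annotated exons had a median length of 1978 bases (317 to 5317), against 947 bases for the 1221 other candidates with a length, and the rule on counts, without correction for length, favours long loci. An overlap with a coding gene on the opposite strand was found for 157 members (78.5%), against 56.1% of the other candidates, and 39 members lay opposite 2 or more coding genes. Another 11 overlapped a coding gene on the same strand, 18 lay in tandem within 1000 bases upstream of one, 7 were divergent from one and 3 convergent with one. The 196 coding genes opposite members were weaker than other coding genes. Their median was 26.4 CPM in STF libraries, against 49.6 CPM for the 778 genes opposite other candidates and 64.5 CPM for all 5107 coding genes matched. Of the 196, 20.4% were under 5 CPM, against 7.33% of the genes opposite other candidates and 7.19% of all coding genes. Meiosis genes occurred among them: 8 (4.08%) bear a mug name, for meiotically upregulated gene, against 1.67% of the genes opposite other candidates and 1.78% of all coding genes.

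Reads on the opposite strand could reach a member if counting had ignored strand, and the strand setting of the counting step is not given in the sources used here. For 21 members at least 95% of the exon length lies inside exons of 1 antisense coding gene. These had 10.01 to 59.8 CPM in STF libraries and at least 28 counts in every library, and their level ranged from 0.152 to 8.15 times that of the gene opposite. HTSeq leaves reads that lie in 2 features out of its gene counts, so that an unstranded count would have left a locus wholly inside another near 0.

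In the STF mutants members were called in both directions, in a proportion that depended on the scaling. With the edgeR quasi-likelihood test and an adjusted p of at most 0.05 over all loci, 51 members were higher and 44 lower in STF6 than in asp1-WT, where 16.6% and 11.6% of all 6144 loci tested were called. In STF9 the members called numbered 54 higher and 50 lower, beside 18.2% and 15.1% of all loci. With total counts in place of TMM scaling, STF9 had 26 members higher and 68 lower. Since the members were chosen on these libraries, nothing is read from these counts. The pairing of culture numbers held for STF6 and asp1-WT, and a fit of those 2 groups alone with the culture number as a block called 62 members higher and 67 lower, against 38 and 43 in those 2 groups without the block. The shares of all loci under these fits are not given, so nothing about the members is read from that rise. The median log2 fold change of all 200 was 0.07 in STF6 and -0.004 in STF9, against 0.06 and -0.03 over all loci. In the kcs1 libraries, which the rule did not use, 39 members were higher and 21 lower in kcs1-R332T, beside 14.3% and 19.8% of 6093 loci. In kcs1-L338R 22 were higher and 16 lower, beside 10.9% and 11.5%. The same kind of paired fit, which also applied to that allele, called 9 lower, against 6 in those 2 groups without the block, again without a share of all loci. In kcs1-E834K 39 were higher and 12 lower, beside 12.4% and 15.4%. As a share of the 200, the members called lower were 10.5% for R332T, 8% for L338R and 6% for E834K, each below the share of all loci, whereas other SPNCRNA loci were called lower in 3.25%, 3.25% and 1.51%. When a change of 2-fold or more and a normalized count averaging 100 or more in the higher group were required as well, 12 members were higher and 11 lower in STF6 (2.51% and 1.73% of all loci), 9 and 12 in STF9 (2.12% and 1.87%), 4 and 5 in kcs1-R332T (0.525% and 0.377%), 2 and 4 in kcs1-L338R (0.46% and 0.476%), and 3 and 3 in kcs1-E834K (0.689% and 0.443%). The median log2 fold change of the members was 0.08 in kcs1-R332T (0.01 over all loci), 0.06 in kcs1-L338R (-0.04) and 0.11 in kcs1-E834K (0.02). Most calls were small: the median fold of the members called higher ran from 1.38 in kcs1-R332T to 1.55 in STF6. The count of members called lower in kcs1-L338R was 10, 9 and 8 when kcs1-WT replicates 1, 2 and 3 were left out in turn. In kcs1-E834K it was 23 higher and 7 lower without kcs1-WT replicate 1, 24 higher and 7 lower without kcs1-E834K replicate 2, and 59 higher without kcs1-L338R replicate 1. In STF9 35 members were called higher without asp1-WT replicate 3.

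**Figure D2:**
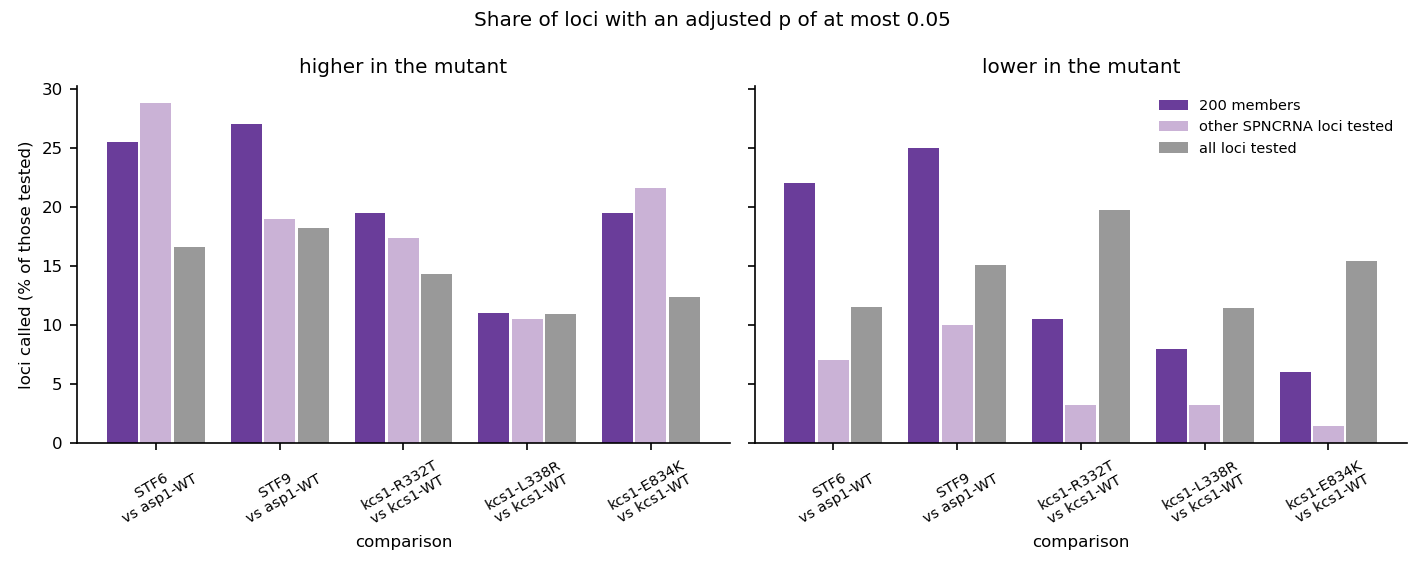
Share of loci called (percent of those tested, adjusted p of at most 0.05) in the 5 comparisons of a mutant with its wild-type, higher in the mutant on the left and lower on the right. Dark bars are the 200 members, pale bars the other SPNCRNA loci tested and grey bars all loci tested; members are called lower in 10.5%, 8% and 6% in the 3 kcs1 alleles, below the grey bars.

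Among the lncRNAs higher in the STF mutants, SPNCRNA.1557 and SPNCRNA.1276 changed most. SPNCRNA.1557 lies wholly opposite lid2, a histone H3 lysine 4 demethylase. It had 70.4, 68.0 and 52.7 CPM in STF6, 72.7, 76.2 and 69.2 CPM in STF9, and 3.39, 3.84 and 3.83 CPM in asp1-WT. The groups were far apart, and the folds over asp1-WT were 17.3 in STF6 (log2 4.11 ± 0.14 SE) and 19.7 in STF9 (log2 4.30 ± 0.14 SE). SPNCRNA.1276, opposite brl1 for a histone H2B ubiquitin ligase, had 89.3, 97.0 and 74.0 CPM in STF6, 83.5, 93.6 and 86.4 CPM in STF9, and 8.31, 9.65 and 9.22 CPM in asp1-WT. That is 9.59-fold higher in STF6 and 9.71-fold higher in STF9, with no overlap. SPNCRNA.1525, opposite the cohesin subunit gene psm1, had 16.5, 13.3 and 11.6 CPM in STF6, 14.0, 13.3 and 14.1 CPM in STF9, and 2.65, 3.63 and 2.96 CPM in asp1-WT, 4.48-fold higher in each mutant. It ranked 191 of 200. SPNCRNA.934, near the amino acid permease gene per1, had 32.0, 29.5 and 30.1 CPM in STF6, 28.5, 29.0 and 27.1 CPM in STF9, and 4.81, 7.76 and 10.9 CPM in asp1-WT, whose 3 libraries spread widely but stayed below every mutant library.
Further calls were smaller. SPNCRNA.1021, opposite mid2, a septation gene, and rpb9, an RNA polymerase II subunit gene, had 8.29, 16.3 and 18.0 CPM in STF6, 11.1, 8.16 and 8.71 CPM in STF9, and 4.35, 6.23 and 6.16 CPM in asp1-WT. Its STF6 libraries scattered over a wide range but all exceeded asp1-WT (log2 fold change 1.35 ± 0.26 SE). SPNCRNA.1665, opposite the replication initiation gene cdc23, averaged 20.6 ± 2.4 CPM in STF6, 24.9 ± 0.51 CPM in STF9 and 9.23 ± 0.82 CPM in asp1-WT (SD, n = 3 each), 2.23-fold and 2.69-fold higher. In asp1-WT all 6 of these lncRNAs averaged less than the last member taken (SPNCRNA.1557 3.69 CPM, SPNCRNA.1276 9.06 CPM, SPNCRNA.1525 3.08 CPM, SPNCRNA.934 7.83 CPM, SPNCRNA.1021 5.58 CPM and SPNCRNA.1665 9.23 CPM). They became members through the mutants in which they were high, so these folds are a description and no test of them is given.

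The lncRNAs lower in the STF mutants included the second most abundant member. SPNCRNA.1626, opposite mbx2 for a MADS-box transcription factor of cell adhesion, had 225, 172 and 188 CPM in STF6, 168, 174 and 194 CPM in STF9, and 831, 655 and 777 CPM in asp1-WT. It was 3.87-fold lower in STF6 and 4.23-fold lower in STF9, with no overlap of the groups. The rule used these libraries, so the STF folds here are a description. SPNCRNA.935, on the same strand 607 bases upstream of per1, had 54.6, 41.5 and 35.4 CPM in STF6, 76.9, 61.4 and 78.2 CPM in STF9, and 209, 192 and 163 CPM in asp1-WT. All 6 mutant libraries were below all 3 of the wild-type, 4.30-fold in STF6 and 2.61-fold in STF9. SPNCRNA.1195 lies wholly opposite tti1, whose product helps to assemble PIK-related kinases, and 388 bases from gdh1, the NADP-dependent glutamate dehydrogenase. It had 9.77, 7.46 and 6.21 CPM in STF6, 10.4, 11.9 and 9.24 CPM in STF9, and 39.0, 28.8 and 29.4 CPM in asp1-WT. The folds were 4.16 in STF6 and 3.07 in STF9, both lower.

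SPNCRNA.863 showed the largest decrease in STF9. It had 14.6, 18.5 and 24.1 CPM in STF6, 12.4, 14.1 and 13.5 CPM in STF9, and 62.0, 61.8 and 88.0 CPM in asp1-WT, so it was 3.69-fold lower in STF6 and 5.29-fold lower in STF9. No annotated coding gene lies within 1000 bases of it. SPNCRNA.1690, opposite the copper amine oxidase gene cao2, averaged 17.6 ± 2.2 CPM in STF6, 21.5 ± 1.5 CPM in STF9 and 62.7 ± 4.6 CPM in asp1-WT. SPNCRNA.724, opposite the splicing helicase gene prp22 and 303 bases from the sulfite reductase gene sir1, averaged 9.85 ± 1.4 CPM in STF6, 8.81 ± 0.81 CPM in STF9 and 25.7 ± 2.9 CPM in asp1-WT. SPNCRNA.928 (meu16), opposite the meiotic gene mde6, averaged 5.68 ± 0.42 CPM in STF6, 6.4 ± 0.60 CPM in STF9 and 17.5 ± 3.0 CPM in asp1-WT (SD, n = 3 each). For each of these 3 the mutant libraries lay below those of the wild-type. SPNCRNA.724 and meu16 were under the level of the last member in STF9, and SPNCRNA.1195 was so in STF6 on average. SPNCRNA.724, meu16 and SPNCRNA.1195 were taken through asp1-WT.

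The STF6 and STF9 alleles were set against each other directly. No member was called between STF9 and STF6 by edgeR or by DESeq2, beside 0.0814% of all loci called higher and 0% called lower in STF9. An unadjusted p under 0.05 was found for 27 of the 200 members by each tool, 13.5%, against 22.4% of all loci by edgeR. The largest absolute log2 difference of a member was 0.72. A total of 46 members were higher in both mutants than in asp1-WT (23% of members, 12.1% of the 6043 loci tested in both experiments) and 40 were lower in both (20% of members, 8.59% of loci). Both comparisons share the asp1-WT libraries, and no member was higher in one and lower in the other.

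**Figure D3:**
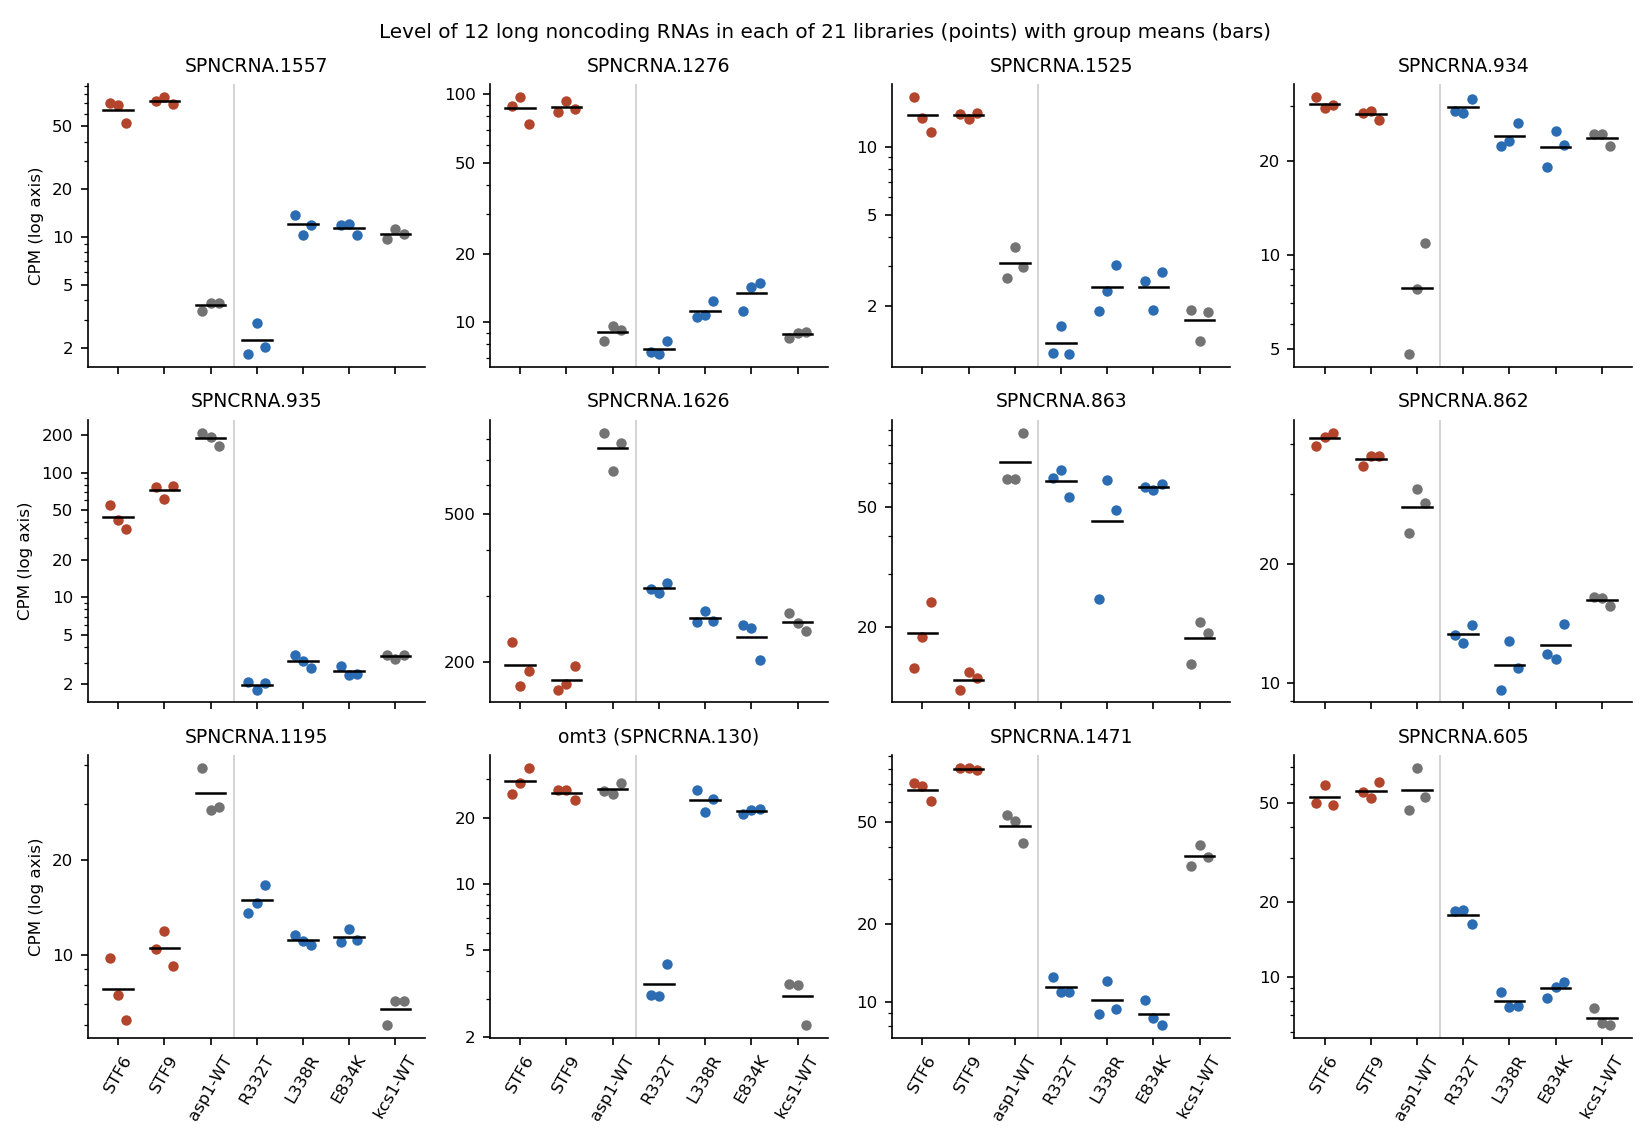
CPM (log axes, scaled per panel) of 12 lncRNAs in each of the 21 libraries, 3 points per group with the group mean as a bar, STF experiment left of the grey line and kcs1 experiment right of it. SPNCRNA.1557, SPNCRNA.1276, SPNCRNA.1525 and SPNCRNA.934 are higher in STF6 and STF9 than in asp1-WT, SPNCRNA.935, SPNCRNA.1626, SPNCRNA.863 and SPNCRNA.1195 are lower, and omt3 (SPNCRNA.130) is high in kcs1-L338R and kcs1-E834K.

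Several of the strongest responders in the kcs1 alleles separated one allele from the other 2. SPNCRNA.130 is omt3, annotated as one of the RNAs of the Smp foci where homologous chromosomes recognise each other in meiosis. It had 3.11, 3.10 and 4.31 CPM in kcs1-R332T, 26.7, 21.1 and 24.2 CPM in kcs1-L338R, 20.8, 21.5 and 21.9 CPM in kcs1-E834K, and 3.5, 3.48 and 2.28 CPM in kcs1-WT. The kcs1-R332T libraries overlapped those of the wild-type (log2 fold change 0.18 ± 0.19 SE, adjusted p = 0.47), whereas kcs1-L338R was 7.78-fold higher (log2 2.96 ± 0.17 SE, adjusted p = 4.4e-08) and kcs1-E834K 6.94-fold higher (log2 2.80 ± 0.17 SE, adjusted p = 7.9e-08). In STF libraries omt3 averaged 29.2 ± 4.1 CPM in STF6, 25.8 ± 1.6 CPM in STF9 and 26.8 ± 1.6 CPM in asp1-WT and was not called. SPNCRNA.1557 had 1.82, 2.84 and 2.02 CPM in kcs1-R332T, 13.8, 10.3 and 11.9 CPM in kcs1-L338R, 11.9, 12 and 10.3 CPM in kcs1-E834K, and 9.66, 11.2 and 10.5 CPM in kcs1-WT. It was 4.64-fold lower in kcs1-R332T than in kcs1-WT (log2 fold change -2.22 ± 0.17 SE, adjusted p = 7.8e-07), with no overlap, and was not called in the other two. SPNCRNA.605 lies opposite hhy1 and 659 bases from the siderophore transporter gene str3. It had 18.4, 18.6 and 16.3 CPM in kcs1-R332T, 8.67, 7.58 and 7.65 CPM in kcs1-L338R, 8.24, 9.14 and 9.58 CPM in kcs1-E834K, and 7.53, 6.53 and 6.41 CPM in kcs1-WT. It was 2.60-fold higher in kcs1-R332T (adjusted p = 2.1e-06) and was also called in kcs1-E834K, by 1.32-fold (adjusted p = 0.026), a call lost when kcs1-WT replicate 2 or 3 or kcs1-E834K replicate 2 or 3 was left out.

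Direct contrasts between the kcs1 alleles gave 29 members higher and 21 lower in kcs1-R332T than in kcs1-L338R (17.6% and 19% of all loci), and 10 higher and 22 lower in kcs1-R332T than in kcs1-E834K (4.05% and 9.88% of all loci). DESeq2 called 27 and 26 members in the first of these and 11 and 21 in the second. Between kcs1-L338R and kcs1-E834K no member was called by edgeR or DESeq2, 15 had an unadjusted p under 0.05 by each tool, and 0% of all loci were called. The largest absolute log2 difference there was 0.59.

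Other members moved in the same direction in the 3 alleles. SPNCRNA.1471, opposite the F-box gene pof9, had 12.5, 10.9 and 10.9 CPM in kcs1-R332T, 8.93, 12.1 and 9.35 CPM in kcs1-L338R, 10.2, 8.67 and 8.12 CPM in kcs1-E834K, and 33.8, 40.6 and 36.5 CPM in kcs1-WT. It was 3.24-fold, 3.65-fold and 4.11-fold lower than kcs1-WT, and no mutant library reached the wild-type range. SPNCRNA.1397, opposite num1, averaged 9.09 ± 0.57 CPM in kcs1-R332T, 10.1 ± 0.96 CPM in kcs1-L338R, 9.69 ± 0.52 CPM in kcs1-E834K and 21.1 ± 1.3 CPM in kcs1-WT. SPNCRNA.1431, 233 bases upstream of tom40 for the mitochondrial import pore, averaged 4.44 ± 0.93 CPM in kcs1-R332T, 6.36 ± 0.47 CPM in kcs1-L338R, 6.42 ± 0.20 CPM in kcs1-E834K and 10.4 ± 1.2 CPM in kcs1-WT. SPNCRNA.716 averaged 12.7 ± 1.6 CPM in kcs1-R332T, 8.40 ± 0.76 CPM in kcs1-L338R, 10.8 ± 0.18 CPM in kcs1-E834K and 19.0 ± 2.1 CPM in kcs1-WT (SD, n = 3 each). These 4 were called lower in all 3 alleles, but not always by the same amount, since SPNCRNA.1431 was lower in kcs1-R332T than in either other allele and SPNCRNA.716 higher in kcs1-R332T than in kcs1-L338R in the direct contrasts.

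SPNCRNA.863, lower in both STF mutants, had 62.3, 66.2 and 53.7 CPM in kcs1-R332T, 24.7, 61.2 and 48.8 CPM in kcs1-L338R, 58.0, 57.0 and 59.4 CPM in kcs1-E834K, and 15.1, 20.7 and 19.1 CPM in kcs1-WT. All 9 mutant libraries exceeded kcs1-WT, though kcs1-L338R scattered, and the folds were 3.32, 2.45 and 3.18. SPNCRNA.887, opposite slx4 for a structure-specific endonuclease subunit, averaged 13.4 ± 0.47 CPM in kcs1-R332T, 12 ± 0.68 CPM in kcs1-L338R, 13.1 ± 0.57 CPM in kcs1-E834K and 6.42 ± 0.22 CPM in kcs1-WT. SPNCRNA.954, which overlaps 71 bases of the cell surface glycoprotein gene pfl2 on the opposite strand, averaged 18.0 ± 0.35 CPM in kcs1-R332T, 23.6 ± 2.1 CPM in kcs1-L338R, 23.0 ± 0.73 CPM in kcs1-E834K and 13.2 ± 0.94 CPM in kcs1-WT. Both were called higher in all 3 alleles, SPNCRNA.954 by less in kcs1-R332T than in the other two.

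Some kcs1 calls rested on scattered libraries or low levels. SPNCRNA.1487, opposite the DNA glycosylase gene mag2, had 2.62, 1.90 and 2.20 CPM in kcs1-R332T, 5.03, 3.36 and 5.23 CPM in kcs1-L338R, 3.13, 4.66 and 5.54 CPM in kcs1-E834K, and 14.1, 14.7 and 3.42 CPM in kcs1-WT. Replicate 3 of the wild-type lay at the level of the mutants, and in the STF experiment asp1-WT replicate 3 did so as well, with 6.22 CPM beside 19.2 and 21 CPM. Its calls in STF6, kcs1-L338R and kcs1-E834K were each lost under at least 1 alternative. The same held for SPNCRNA.1115 in kcs1-E834K, where it averaged 3.95 ± 0.63 CPM against 1.97 ± 0.41 CPM in kcs1-WT. SPNCRNA.1643 lies opposite oaa1 and rib7 and 167 bases from the ornithine transaminase gene car2. It averaged 12 ± 1.9 CPM in kcs1-R332T, 6.45 ± 0.92 CPM in kcs1-L338R, 8.83 ± 0.32 CPM in kcs1-E834K and 11 ± 0.73 CPM in kcs1-WT, and was called only in kcs1-L338R of these. SPNCRNA.1576 and SPNCRNA.1600 were called higher in kcs1-R332T, with 7.95 ± 1.1 CPM and 19.3 ± 0.65 CPM there, against 4.65 ± 0.59 CPM and 11.5 ± 1.8 CPM in kcs1-WT.

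Across both experiments 56 members were called in none of the 5 comparisons (28% of members, 33.3% of the 6043 loci). Higher in all 3 kcs1 alleles were 12 members (6%, against 3.72% of loci), and lower in all 3 were 6 (3%, against 5.73%). SPNCRNA.1698 (nc-tgp1), SPNCRNA.887 and SPNCRNA.1086 were higher in all 5 mutants, and SPNCRNA.1644 was lower in all 5. Of these 4 only SPNCRNA.887 kept all 5 calls under every alternative: nc-tgp1 lost that in STF9 with total counts (adjusted p = 0.084), SPNCRNA.1086 that in kcs1-R332T when kcs1-WT replicate 3 or kcs1-R332T replicate 2 or 3 was left out, and SPNCRNA.1644 those in STF9, kcs1-L338R and kcs1-E834K under 4 of 15, 5 of 19 and 1 of 18 alternatives. In asp1-WT SPNCRNA.1086 averaged 8.18 CPM, under the level of the last member. It was taken through the STF mutants, so its STF calls are a description. Opposite calls occurred as well. SPNCRNA.1471, SPNCRNA.949, SPNCRNA.1518, SPNCRNA.1397, SPNCRNA.862 and SPNCRNA.777 were higher in both STF mutants and lower in at least 2 kcs1 alleles (3% of members, 1.97% of loci). SPNCRNA.863, SPNCRNA.1195, SPNCRNA.1296, SPNCRNA.1063 and SPNCRNA.724 were lower in both STF mutants and higher in at least 2 kcs1 alleles (2.5% of members, 1.26% of loci). Of these 11 lncRNAs SPNCRNA.1471, SPNCRNA.863, SPNCRNA.1195 and SPNCRNA.724 kept every call that makes the pattern under every alternative run. Their STF calls come from the libraries the rule used, so this is no test of the pattern. Each of the others lost at least 1 of its calls: SPNCRNA.949 lost that in STF6 under 11 of 16 alternatives, DESeq2 among them, SPNCRNA.1397 that in STF9 under 7 of 15, SPNCRNA.1518 that in kcs1-E834K under 11 of 18, SPNCRNA.862 that in kcs1-E834K under 7 of 18, SPNCRNA.777 that in kcs1-L338R under 13 of 19, SPNCRNA.1296 that in STF9 under 5 of 15 and SPNCRNA.1063 that in STF9 under 8 of 15. Lower in both STF mutants and higher in kcs1-R332T were 13 members (6.5%, against 2.35% of loci), and 3 were lower in both STF mutants and in kcs1-R332T (1.5%, against 1.32%). These shares rest in part on STF calls and are a description. The changes of most of them were modest: SPNCRNA.949 had log2 fold changes of 0.28 and 0.42 in STF6 and STF9, and of -0.26 in kcs1-R332T and -0.29 in kcs1-L338R, and was not called in kcs1-E834K (-0.16).

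**Figure D4:**
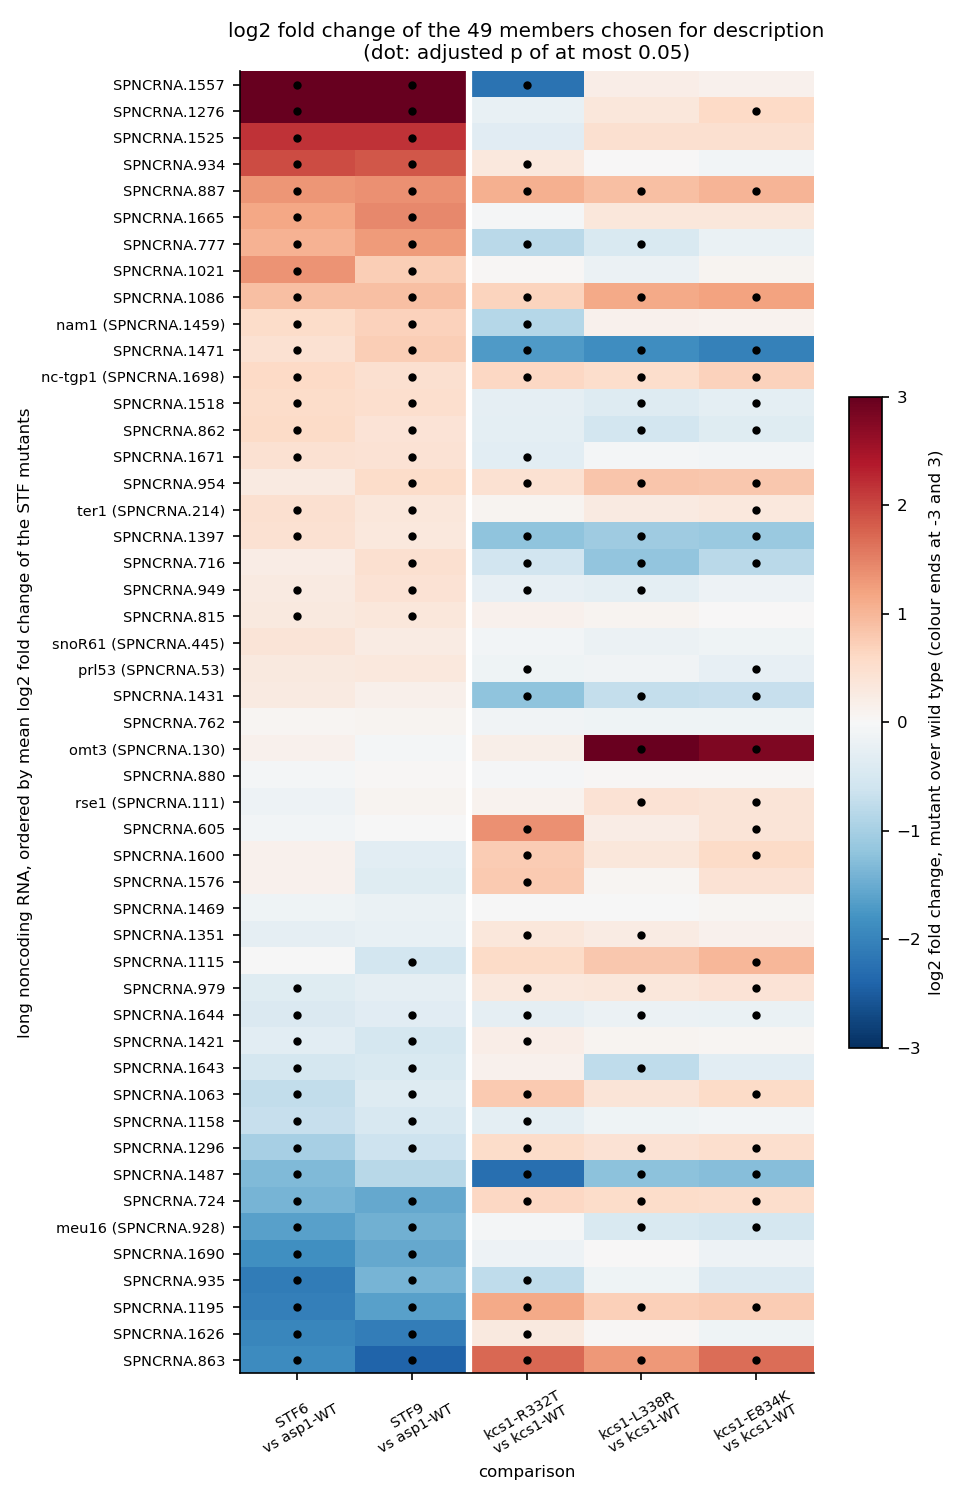
Log2 fold change (colour, mutant over wild-type, ends at -3 and 3) of the 49 lncRNAs chosen for description, 1 row each, in the 5 comparisons, ordered by the mean of the STF mutants; a dot marks an adjusted p of at most 0.05. Rows at the top (SPNCRNA.1557, SPNCRNA.1276) and bottom (SPNCRNA.863, SPNCRNA.1626) have the largest mean STF changes in each direction. The rule used the STF libraries, so dots in the STF columns are a description and no test.

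LncRNAs with a name of their own changed by less than 2-fold except omt3 and meu16. The interfering RNA nc-tgp1 had 28.8, 28.5 and 29.5 CPM in STF6, 28.2, 25.2 and 26.6 CPM in STF9, and 20.4, 18.1 and 18.8 CPM in asp1-WT. It had 15.3, 14.6 and 12.8 CPM in kcs1-R332T, 12.3, 12.9 and 15.1 CPM in kcs1-L338R, 15.1, 13.4 and 16.7 CPM in kcs1-E834K, and 9.34, 8.78 and 9.60 CPM in kcs1-WT. No mutant library overlapped its wild-type, with log2 fold changes of 0.60, 0.48, 0.62, 0.54 and 0.70 in that order of the mutants (adjusted p from 0.0011 to 0.0071). Its STF values come from libraries the rule used and are a description. The same-strand gene downstream, tgp1 for a glycerophosphodiester transporter, went in opposite directions in the 2 experiments: 1116 ± 77 CPM in STF6, 1178 ± 12 CPM in STF9 and 25.3 ± 2.3 CPM in asp1-WT, but 9.24 ± 1.6 CPM in kcs1-R332T, 15.2 ± 1.3 CPM in kcs1-L338R, 15.6 ± 0.79 CPM in kcs1-E834K and 46.9 ± 5.9 CPM in kcs1-WT (SD, n = 3 each). The annotations of nc-tgp1 and tgp1 share 77 bases, so a few reads of one may count for neither or for the other. SPNCRNA.1459 (nam1), a lncRNA upstream of byr2 that represses this MAP kinase kinase kinase gene of the pheromone pathway, averaged 33.2 ± 3.6 CPM in STF6, 36.5 ± 3.9 CPM in STF9 and 22.7 ± 2.1 CPM in asp1-WT. It averaged 5.62 ± 0.40 CPM in kcs1-R332T, 11 ± 1.0 CPM in kcs1-L338R, 10.8 ± 0.72 CPM in kcs1-E834K and 10.1 ± 0.84 CPM in kcs1-WT, and was called in STF6, STF9 and kcs1-R332T. The byr2 gene was called in none of the 5 comparisons.

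The telomerase RNA ter1 (SPNCRNA.214) averaged 27.8 ± 3.2 CPM in STF6, 25.1 ± 2.0 CPM in STF9 and 19.8 ± 0.36 CPM in asp1-WT. Both STF calls, from libraries the rule used, were small (log2 fold changes 0.49 and 0.34, adjusted p = 0.0091 and 0.047). The call in kcs1-E834K was small as well (log2 0.31). The call in STF9 was lost under 9 of 15 alternatives, among them total counts and no filter on low counts, that in kcs1-E834K under 6 of 18, each with 1 library left out, and that in STF6 with the 2 groups alone (adjusted p = 0.061). SPNCRNA.111 (rse1), annotated as a repressor of ste11, the transcription factor of sexual differentiation, averaged 60.6 ± 0.28 CPM in kcs1-R332T, 75.5 ± 1.4 CPM in kcs1-L338R, 73.0 ± 1.4 CPM in kcs1-E834K and 56.2 ± 4.0 CPM in kcs1-WT, and was called higher in kcs1-L338R and kcs1-E834K. It was not called in STF6 or STF9. The snoRNA snoR61 was called in none of the 5 comparisons.

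Among the members highest by CPM or RPKM, changes were within a factor of 2 apart from SPNCRNA.1626 and SPNCRNA.935. SPNCRNA.1644, opposite the meiotic kinase gene spo4, had 133, 123 and 105 CPM in STF6, 129, 126 and 129 CPM in STF9, and 146, 181 and 156 CPM in asp1-WT, and averaged 64.3 ± 0.70 CPM in kcs1-R332T, 67.9 ± 4.5 CPM in kcs1-L338R, 67.0 ± 1.8 CPM in kcs1-E834K and 77.1 ± 2.0 CPM in kcs1-WT. It was 1.34-fold lower in STF6, 1.26-fold lower in STF9 and less so in the kcs1 alleles, the smallest change being that in kcs1-L338R (adjusted p = 0.027). SPNCRNA.1158, opposite gnr1 for a G protein beta subunit-like repressor of the pheromone pathway, averaged 54.1 ± 4.1 CPM in STF6, 62.6 ± 5.1 CPM in STF9 and 87.9 ± 8.1 CPM in asp1-WT and was called lower in both. SPNCRNA.815 and SPNCRNA.1671 were called higher in both STF mutants, 1.23-fold to 1.37-fold, and SPNCRNA.1421 lower in both. The call of SPNCRNA.815 in STF6 was lost under 10 of 16 alternatives (DESeq2 adjusted p = 0.107) and that in STF9 under 6 of 15. SPNCRNA.1671 was called lower in kcs1-R332T (log2 -0.32, adjusted p = 0.0054). SPNCRNA.979 was lower in STF6 and higher in all 3 kcs1 alleles, by log2 0.31 to 0.40. SPNCRNA.1351 was higher in kcs1-R332T and kcs1-L338R. SPNCRNA.762, SPNCRNA.1469 and SPNCRNA.880, opposite crp79 for a meiotic RNA-binding protein, an unnamed gene and bgs2 for the spore wall glucan synthase, were called in none of the 5 comparisons. Their group means in STF libraries lay within 66.6 to 81.6 CPM.

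Genes opposite a changed lncRNA did not move in one direction. Of the 49 genes opposite members called higher in STF6, 12 were called higher and 4 lower, of the 45 opposite members called lower, 12 were higher and 10 lower, and of the 100 opposite members not called, 21 were higher and 6 lower, beside 16.6% and 11.6% of all loci. In STF9 these counts were 13 higher and 10 lower of 57, 12 and 10 of 49, and 12 and 10 of 88, beside 18.2% and 15.1% of all loci. Opposite members higher in kcs1-R332T 4 of 37 genes were higher and 4 lower, in kcs1-L338R 2 and 3 of 18, and in kcs1-E834K 2 and 3 of 30. Opposite members lower in these alleles they numbered 3 and 3 of 16, 3 and 5 of 17, and 1 and 1 of 9, and opposite members not called 20 and 20 of 135, 11 and 17 of 153, and 14 and 19 of 149, beside the shares of all loci given above for each allele. Single loci showed unchanged, opposite and like changes. The lid2 gene was not called in STF6 or STF9 (100 ± 8.2 CPM and 102 ± 0.76 CPM, against 108 ± 2.1 CPM in asp1-WT), although SPNCRNA.1557 on its other strand was over 17-fold higher there. The mbx2 gene was higher, with 40.9 ± 6.6 CPM in STF6 and 52.0 ± 4.7 CPM in STF9 against 16.3 ± 1.4 CPM in asp1-WT (log2 fold changes 1.33 and 1.67), where SPNCRNA.1626 was lower. The cao2 gene was likewise higher, with 22.9 ± 4.9 CPM in STF6 and 19.2 ± 0.88 CPM in STF9 against 5.69 ± 0.17 CPM in asp1-WT (log2 2.01 and 1.75), where SPNCRNA.1690 was lower. The meiotic gene mde6 was lower in both, as was meu16 (SPNCRNA.928) opposite it, with 8.02 ± 2.9 CPM in STF6 and 5.91 ± 0.62 CPM in STF9 against 12.9 ± 1.8 CPM in asp1-WT (log2 -0.68 and -1.12), and both were lower again in kcs1-L338R (log2 -0.62 for mde6 and -0.45 for meu16). SPNCRNA.1557 and meu16 became members through the groups in which they were high, so their STF changes are a description.

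Neighbours on other sides were called together with the lncRNA at some loci. Of 27 genes divergent from members called higher in STF6, 6 were higher and 3 lower. Of 23 divergent from those called lower, 2 were higher and 8 lower. In STF9 these were 5 and 2 of 26, and 3 and 8 of 28. For kcs1-R332T they were 2 and 4 of 26, and 1 and 3 of 7. For kcs1-L338R they were 4 and 2 of 11, and 1 and 2 of 8. For kcs1-E834K they were 4 and 4 of 23, and 1 and 2 of 4, beside the shares of all loci given above. Divergent from members not called, genes higher and lower numbered 8 and 8 of 57 in STF6 and 7 and 5 of 53 in STF9. In the kcs1 alleles they numbered 10 and 16 of 73 for R332T, 10 and 13 of 87 for L338R, and 8 and 19 of 79 for E834K. SPBC3H7.05c, divergent from SPNCRNA.1471 at a distance of 21 bases, averaged 131 ± 2.5 CPM in kcs1-R332T, 108 ± 6.1 CPM in kcs1-L338R, 103 ± 4.4 CPM in kcs1-E834K and 230 ± 23 CPM in kcs1-WT. Both it and the lncRNA were lower in all 3 alleles (adjusted p from 3.5e-08 to 8.3e-07 for SPBC3H7.05c). The amino acid transporter gene isp5, divergent from SPNCRNA.1086, was higher in kcs1-L338R and kcs1-E834K (log2 0.97 and 1.04), as was SPNCRNA.1086 (log2 1.14 and 1.21). The sulfite reductase gene sir1 was lower in STF6 and STF9 (log2 -1.07 and -0.87), as was SPNCRNA.724 beside it, but was not called in the kcs1 alleles, where SPNCRNA.724 was higher. The glutamate dehydrogenase gene gdh1 was lower in STF6 and STF9 and higher in kcs1-L338R and kcs1-E834K (log2 0.69 in each), and so was SPNCRNA.1195 beside it. In kcs1-R332T SPNCRNA.1195 was higher by log2 1.14 while gdh1 was not called. SPNCRNA.724 and SPNCRNA.1195 were taken through asp1-WT, so their lower STF calls are a description. The per1 gene, downstream of SPNCRNA.935, averaged 104 ± 13 CPM in STF6, 109 ± 3.3 CPM in STF9 and 213 ± 36 CPM in asp1-WT. Of 17 genes in tandem downstream of members called higher in STF6, 0 were higher and 3 lower. Of 12 downstream of those called lower, 1 was higher and 4 lower. In STF9 these were 2 and 3 of 17, and 3 and 5 of 12. For kcs1-R332T they were 0 and 3 of 14, and 0 and 2 of 7. For kcs1-L338R they were 0 and 2 of 7, and 1 and 0 of 5. For kcs1-E834K they were 0 and 3 of 12, and 0 and 1 of 5, beside the same shares of all loci. Downstream of members not called, genes higher and lower numbered 7 and 3 of 32 in STF6 and 4 and 6 of 32 in STF9. In the kcs1 alleles they numbered 3 and 11 of 39 for R332T, 4 and 6 of 48 for L338R, and 2 and 11 of 43 for E834K.

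Members also lay opposite each other. Of 10 pairs of members within 1000 bases of each other, 5 were antisense, and 2 of these had opposite calls. Calls in the same direction occurred in 2 of the 5 antisense pairs and in 3 of the 5 tandem pairs. STF calls among these come from libraries the rule used, and no share over all such pairs is given. SPNCRNA.935 and SPNCRNA.934 share 2818 bases on opposite strands. In STF6 and STF9 SPNCRNA.935 was lower and SPNCRNA.934 higher, with log2 fold changes of -2.10 and 1.97 in STF6 and -1.38 and 1.85 in STF9. SPNCRNA.934 became a member through the STF mutants, so its STF calls are a description. In kcs1-R332T this pair was again opposite (-0.76 and 0.33). The wild-types showed the same reversal of levels, SPNCRNA.935 dominant in asp1-WT and SPNCRNA.934 in kcs1-WT. The SPNCRNA.934 call in kcs1-R332T was lost under 6 of 18 alternatives. SPNCRNA.863 and SPNCRNA.862 share 830 bases in the interval between cbm1 and SPAPB2C8.01. SPNCRNA.863 was lower and SPNCRNA.862 higher in STF6 (-1.88 and 0.58) and STF9 (-2.40 and 0.40), and SPNCRNA.863 was higher and SPNCRNA.862 lower in kcs1-L338R (1.29 and -0.54) and kcs1-E834K (1.67 and -0.37). In kcs1-R332T SPNCRNA.862 was not called (log2 fold change -0.28, adjusted p = 0.087). Its call in STF9 was lost under 5 of 15 alternatives and that in kcs1-E834K under 7 of 18. The other 8 pairs had no opposite calls.

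**Figure D5:**
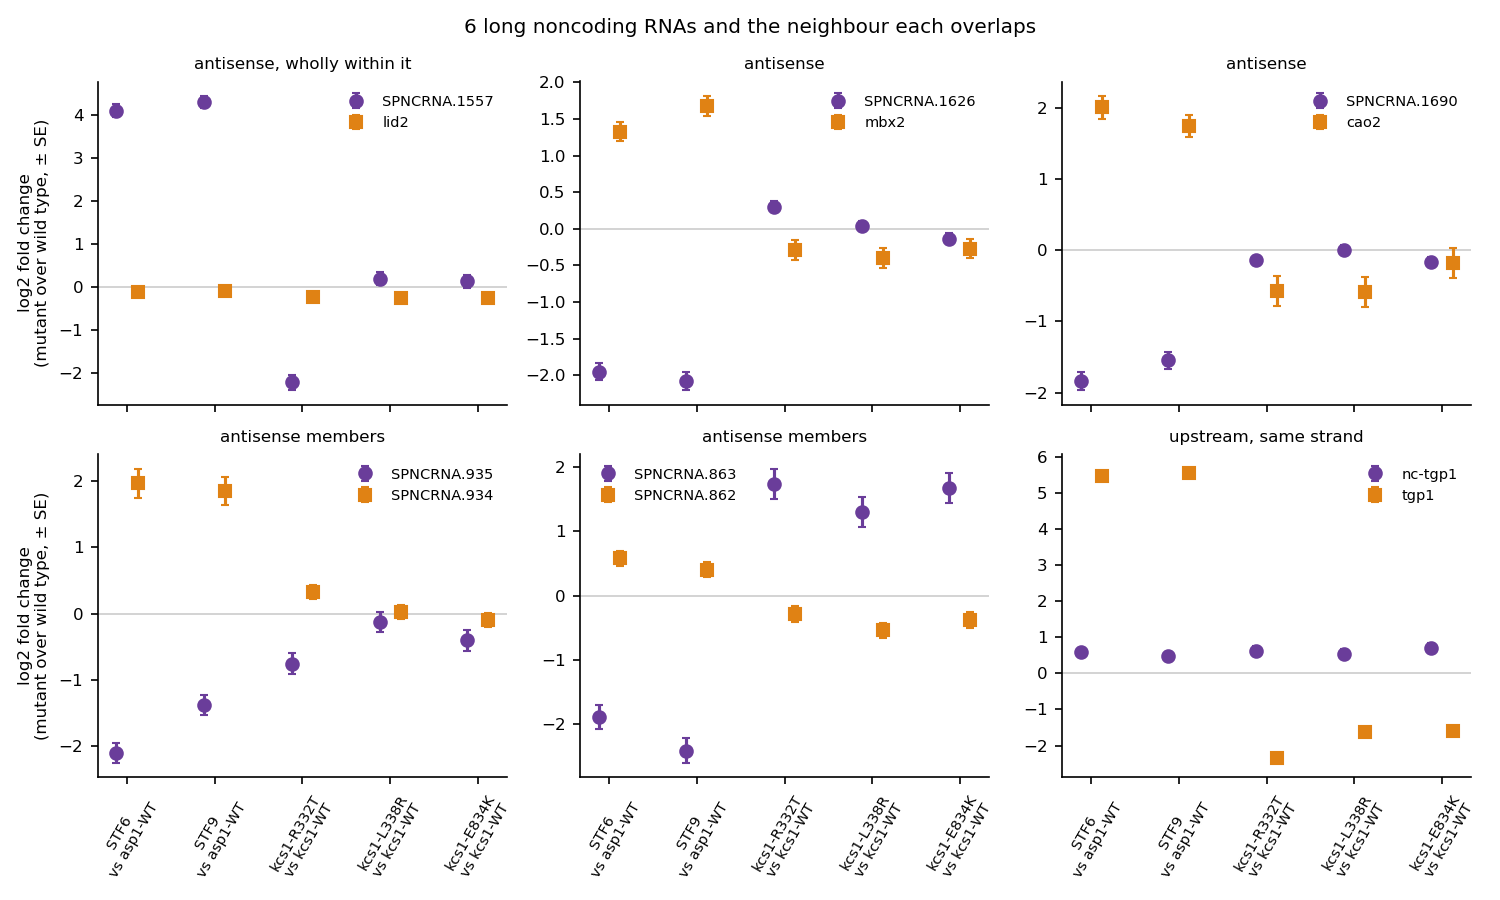
Log2 fold change (mutant over wild-type, error bars SE) of 6 lncRNAs, circles, and of the overlapping neighbour of each, squares, in the 5 comparisons. SPNCRNA.1557 is far above 0 in STF6 and STF9 while lid2 stays near 0, SPNCRNA.1626 and SPNCRNA.1690 fall where mbx2 and cao2 are above 0, both pairs of lncRNAs diverge, and nc-tgp1 stays between 0.48 and 0.70 while tgp1 is above 5 in the STF mutants and below -1 in the kcs1 alleles.

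Genes that process or silence lncRNAs were few among the calls of the STF mutants, and in the kcs1 alleles, where all loci also leaned to lower calls, more were lower than higher. Of 37 such genes 36 were tested. Those called higher and lower numbered 3 and 1 in STF6, 2 and 5 in STF9, 3 and 10 in kcs1-R332T, 1 and 7 in kcs1-L338R, and 0 and 10 in kcs1-E834K. The shares lower were 2.78% in STF6 and 13.9% in STF9, beside 11.6% and 15.1% of all loci, while for kcs1-R332T 27.8% were lower (all loci 19.8%), for kcs1-L338R 19.4% (11.5%) and for kcs1-E834K 27.8% (15.4%). The termination factor gene pcf11 was lower in STF6 and STF9 (log2 fold change -0.71 in each), and swd22, for a subunit of the cleavage and polyadenylation machinery, was higher in both (0.51 and 0.58) and lower in kcs1-R332T (-0.54) and kcs1-E834K (-0.32). The exosome ribonuclease gene dis3 was lower in all 3 kcs1 alleles (-0.45, -0.34 and -0.44), as were seb1, ctf1, clr6 and abp1. The nuclease gene rrp6, whose product turns over many of these RNAs, was called in none of the 5 comparisons.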

How the data were processed

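Poly(A)+ RNA of 21 cultures was sequenced. The authors deposited counts of read pairs per annotated locus, made by aligning reads to assembly ASM294v2 with HISAT2 2.1.0 and counting exons with HTSeq 0.10.0; the strand setting is not given in the sources used here, and the labels and the study's methods name different stranded library kits. The deposited comparison tables (normalized means, log2 fold changes, standard errors, statistics and p-values from DESeq2) were not used.

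Counts as deposited were tested with edgeR 4.0.16 (R 4.3.3): TMM normalization, filterByExpr by group, 1 quasi-likelihood fit per experiment over all its libraries, and Benjamini-Hochberg adjustment over all 6144 (STF) or 6093 (kcs1) loci tested. A locus was called at an adjusted p of at most 0.05. CPM per library were computed on TMM-scaled totals, SE as the log2 fold change over the root of F, and RPKM with RefSeq exon lengths. Names, lengths and neighbours within 1000 bases came from the RefSeq annotation of ASM294v3, matched by identifier for 6836 of 6988 loci; since builds differ, no coordinates are given. P-values rest on the spread among the 3 cultures of each group, estimated together over all groups of an experiment. In asp1-WT this spread mixes cultures of BS216 and AS478. The common dispersion was 0.0149 in the STF and 0.00721 in the kcs1 experiment.

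The members and lists were chosen with earlier results of these data known. Named members were the 5 with the largest change in each direction per comparison (mean CPM of at least 1), the 10 highest by CPM and by RPKM, those with a symbol of their own, those called alike in all 5 comparisons or alike in both STF mutants and oppositely in 2 or more kcs1 alleles, and their neighbours. SPNCRNA.577 and SPNCRNA.01 were named after their values were seen. Gene lists covered lncRNA processing and silencing, and markers of P cells, M cells and meiosis. Same-numbered cultures deviated together between STF6 and asp1-WT (r = 0.249 to 0.548) and between kcs1-L338R and kcs1-WT (r = 0.14 to 0.393), but not in the other 3 comparisons (r = -0.137 to 0.0791). Alternatives were DESeq2 1.42.0, RLE normalization, total counts, no filter, the culture number as a block, only the 2 groups compared, the study's added thresholds (a change of 2-fold or more and a normalized count averaging 100 or more in the higher group), and leaving out each library. Tests were tried on simulated data first.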

Additional observations from a re-analysis of the deposited data

Results flagged for a closer look

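Of the 49 named members, 20 differed between kcs1-R332T and kcs1-L338R and 15 between kcs1-R332T and kcs1-E834K, at an adjusted p of at most 0.05 in the direct contrast of the edgeR quasi-likelihood fit. Of all loci tested, 36.6% and 13.9% were called in these contrasts. Many of the 49 were named for the size of their kcs1 changes, so these counts are a description. Values are log2 differences, kcs1-R332T minus the allele named, with n = 3 libraries each. The largest were in omt3 (SPNCRNA.130), -2.78 from kcs1-L338R (adjusted p = 8.46e-08) and -2.62 from kcs1-E834K (adjusted p = 1.53e-07), with all 3 kcs1-R332T libraries below all 6 of the other alleles. SPNCRNA.1557 followed, with -2.42 from kcs1-L338R (adjusted p = 3.35e-07) and -2.35 from kcs1-E834K (adjusted p = 5.71e-07), again with no overlap. SPNCRNA.605 was higher in kcs1-R332T, by 1.16 over kcs1-L338R (adjusted p = 1.21e-05) and 0.98 over kcs1-E834K (adjusted p = 7.29e-05).

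The named regulatory RNA nam1 (SPNCRNA.1459) was lower in kcs1-R332T, by -0.97 from kcs1-L338R (adjusted p = 7.9e-05) and -0.95 from kcs1-E834K (adjusted p = 0.00016). Smaller differences of the same sign from both alleles were found for SPNCRNA.1525 (-0.81 from kcs1-L338R and -0.80 from kcs1-E834K), SPNCRNA.1276 (-0.56 and -0.82), SPNCRNA.1431 (-0.51 and -0.53), SPNCRNA.954 (-0.39 and -0.35), rse1 (SPNCRNA.111, -0.32 and -0.27) and SPNCRNA.1671 (-0.25 and -0.24). Higher in kcs1-R332T than in either were meu16 (SPNCRNA.928, by 0.39 over kcs1-L338R and 0.48 over kcs1-E834K), SPNCRNA.1195 (0.42 and 0.39), SPNCRNA.934 (0.31 and 0.42) and SPNCRNA.1626 (0.26 and 0.44). Adjusted p-values of these 10 ran from 0.0008 to 0.048.

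Past the threshold from kcs1-L338R but not from kcs1-E834K, kcs1-R332T differed in SPNCRNA.1643 by 0.89, SPNCRNA.1576 by 0.72, SPNCRNA.716 by 0.59, SPNCRNA.1600 by 0.41, SPNCRNA.1063 by 0.40 and SPNCRNA.935 by -0.63 (adjusted p from 0.0005 to 0.04). Past it from kcs1-E834K but not from kcs1-L338R it differed in SPNCRNA.777 by -0.61 (adjusted p = 0.019). No member differed between kcs1-L338R and kcs1-E834K, or between STF9 and STF6, at that threshold.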

How the results depend on the processing

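Of 151 calls of named members, 110 were kept under every alternative, 41 were lost under at least 1 and none changed direction. These include STF calls of members chosen on the STF libraries. For such calls the tally shows only how far they depend on the processing, and it is no test of them. Of the 54 with an absolute log2 fold change of at least 1, 4 were lost under at least 1: SPNCRNA.1487 in STF6, kcs1-L338R and kcs1-E834K, and SPNCRNA.1115 in kcs1-E834K. DESeq2 kept 149 of the 151 and the culture number as a block in the fit of all groups kept 151. That replicate block changed no count of members by over 1.5 times. The paired fit of the 2 groups alone, chosen after seeing the data, gave 67 members lower in STF6 and 9 lower in kcs1-L338R. The 2 groups without the block gave 43 and 6, and the fit of all groups without it 44 and 16. No share of all loci is given for the 2-group fits, so these counts show only dependence on the processing. When a change of 2-fold or more and a normalized count averaging 100 or more were also required, 12 members were higher and 11 lower in STF6, 9 and 12 in STF9, 4 and 5 in kcs1-R332T, 2 and 4 in kcs1-L338R, and 3 and 3 in kcs1-E834K; these thresholds ask more of weak loci by construction. Total counts without TMM moved the median of all loci in STF9 by -0.198 (log2) and gave 26 members higher and 68 lower (27.7% of calls higher, 51.9% with TMM). In kcs1-R332T they gave 50 higher and 14 lower (78.1% of calls higher, 65% with TMM). Leaving out 1 library at a time gave 35 to 55 members higher in STF9, 8 to 18 lower in kcs1-L338R, 23 to 59 higher and 7 to 16 lower in kcs1-E834K; the cause was not tested. In STF6 the ranges were 37 to 48 higher and 35 to 58 lower, in STF9 35 to 73 lower, in kcs1-R332T 26 to 52 higher and 15 to 27 lower, and in kcs1-L338R 17 to 30 higher.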
